A study of Homo sapiens with 18 samples.

Results

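The 9 genes described here encode the kinase GSK3 and the proteins that, with it, mark beta-catenin for destruction: the kinases GSK3A, GSK3B and CSNK1A1, the scaffolds AXIN1 and APC, beta-catenin itself (CTNNB1), its nuclear inhibitor CTNNBIP1, and the ubiquitin ligase subunits BTRC and FBXW11. They were chosen by name, with earlier results of these data known. All 37 probe sets that the platform annotation assigns to 1 of these genes and to no other were used, and each gene is represented by its brightest probe set over the 18 arrays, with the others as a check. The arrays covered 19775 genes, of which 12392 were bright enough to be tested, and all 9 genes were among them.

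In cells without a Wnt signal, AXIN1 and APC hold beta-catenin next to the kinases. CSNK1A1 primes it and GSK3A or GSK3B extends the phosphorylation, after which BTRC or FBXW11 recognises it and the ubiquitin ligase sends it to the proteasome. When GSK3 is blocked, beta-catenin protein can accumulate and act with TCF and LEF factors on target genes such as AXIN2, a feedback copy of the scaffold. Arrays measure transcripts, and say nothing of kinase activity or of protein.

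By its title the series concerns GSK3 inhibition and glioma cell death. It used U251, an established human glioblastoma line, grown in RPMI medium with 5% serum. For 4, 10 or 18 h cells received DMSO, the solvent, or enzastaurin, a drug designed to block the beta form of protein kinase C. There are 6 groups with 3 arrays in each. No genotype or transgene is named, the dose is not given in the labels used here, and all groups are the same line. Whether replicates came from different cultures is not stated, and p-values therefore cover the spread among these samples alone, which could be technical.

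Values are scaled array intensities on a linear scale, and a change is a difference of group means on the log2(intensity + 16) scale, which understates the change of dim probe sets. A gene was called when its adjusted p, from limma with Benjamini-Hochberg adjustment over the 12392 genes, was under 0.05. With 3 arrays per group the median standard error of a change was 0.13, so the number of arrays limits the precision. Of 11 glioma and astroglial markers 8 were bright enough to be tested, among them VIM, NES and SOX2, while GFAP lay between 5.0 and 101.2 and S100B and CHI3L1 were also under the limit. Of 12 markers of other cell types 5 passed. The summed marker levels of the treatments overlapped, with the times pooled. For glioma markers the sums ran from 65272 to 81767 in DMSO and from 57515 to 79455 in enzastaurin. VIM (mean 32569) and CD44 (mean 19336) weigh most in them. For the other types the sums ran from 1446 to 1905 in DMSO and from 1350 to 2240 in enzastaurin. Subtracting each array's median moved the median 4 h change of all genes from 0.00 to 0.12 and the 4 h calls of all genes from 67 higher and 153 lower to 55 higher and 25 lower.

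GSK3B was the member called against DMSO, at 18 h, where it was higher in enzastaurin. At 4 h none of the 9 genes was called by limma (1.78% of all genes were), with 1 at an unadjusted p under 0.05 (12.6% of all genes). At 10 h again none was called (8.41% of all genes), with 2 at an unadjusted p under 0.05 (21.1% of all genes). At 18 h 1 of 9 was called (15.8% of all genes), with 6 at an unadjusted p under 0.05 (27.9% of all genes). At no time was the share of members called after adjustment above that of all genes. The median change of the 9 genes was -0.13, 0.06 and 0.15 at 4, 10 and 18 h, beside 0.00, -0.02 and 0.00 over all genes. The arrays of the treatments did not overlap for 1 gene at 4 h (18.3% of all genes), for 3 at 10 h (26.8%) and for 4 at 18 h (29.7%).

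**Figure D1:**
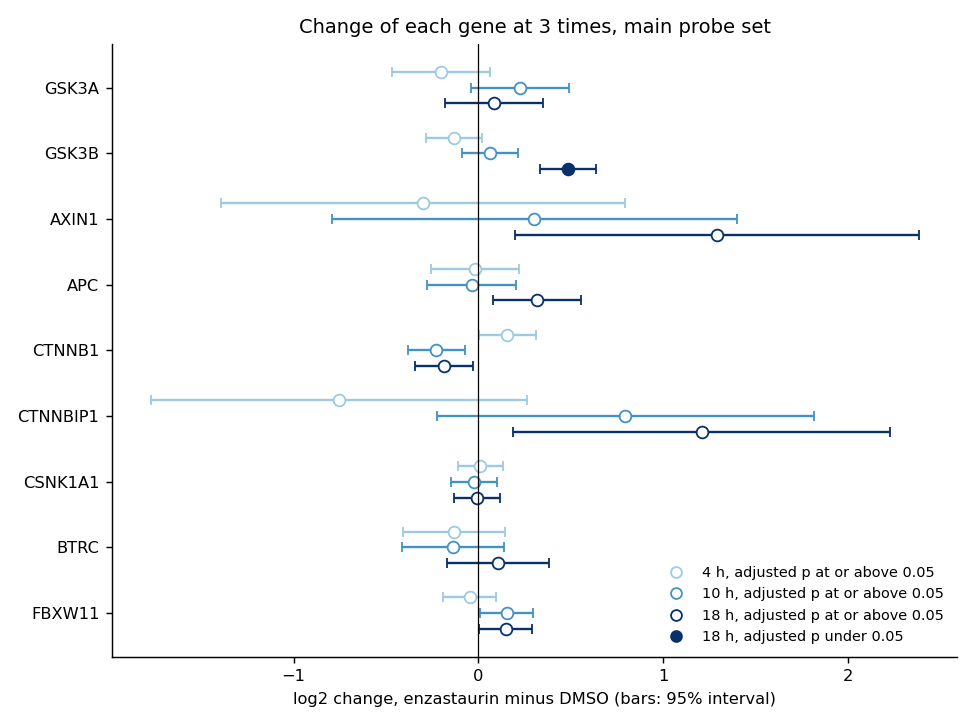
Change of the 9 genes at 4, 10 and 18 h, as the log2 difference of enzastaurin minus DMSO with its 95% interval (3 arrays per group). Filled points have an adjusted p under 0.05, and GSK3B at 18 h (0.48) is the filled point; the intervals of AXIN1 and CTNNBIP1 are the widest.

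GSK3A and GSK3B are paralogs with largely shared substrates. The windows before their start sites are printed because 1 of the pair was called against DMSO and the other was not. They are the 250 bases before each start from RefSeq, build GRCh38.p14, written 5′ to 3′ along the gene, with CCAAT boxes in capitals. GSK3A is read from chr19:42242603-42242852 and GSK3B from chr3:120094448-120094697, both on the minus strand.
GSK3A: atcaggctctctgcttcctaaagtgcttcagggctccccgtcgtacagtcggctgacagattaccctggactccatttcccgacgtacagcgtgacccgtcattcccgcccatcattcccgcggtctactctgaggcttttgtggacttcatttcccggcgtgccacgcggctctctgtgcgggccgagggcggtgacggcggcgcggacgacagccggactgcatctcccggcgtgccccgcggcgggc
GSK3B: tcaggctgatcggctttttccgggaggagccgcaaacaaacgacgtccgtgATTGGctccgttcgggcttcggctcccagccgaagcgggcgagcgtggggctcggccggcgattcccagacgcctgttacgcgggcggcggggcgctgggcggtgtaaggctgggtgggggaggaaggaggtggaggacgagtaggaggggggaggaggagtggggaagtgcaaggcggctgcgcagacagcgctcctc
The GSK3B window holds 1 CCAAT box, on the opposite strand (ATTGG as printed) and 199 bases before the start, and these letters are not in the GSK3A window on either strand. The TCF and LEF core CTTTGA was searched on both strands too and is in neither. Windows were matched for 8 of the 9 genes (10 windows), of which 0 hold CTTTGA and 4 hold CCAAT, against 11.2% and 32% of all 35116 windows of the same length. Neither the difference between the changes of GSK3A and GSK3B nor a role of these letters in it was tested.

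GSK3B lies at chr3:119821321-120094447 (gene positions are those of RefSeq on GRCh38.p14) and has 5 probe sets, of which 226191_at is the brightest. In DMSO its intensities were 1994, 2103 and 2054 at 4 h, 2799, 2762 and 2628 at 10 h, and 2185, 2295 and 2131 at 18 h. In enzastaurin they were 2040, 1707 and 1878 at 4 h, 2741, 3122 and 2702 at 10 h, and 3214, 2971 and 3081 at 18 h. All 3 enzastaurin arrays at 18 h lay above all 3 DMSO arrays of that time, while the treatments overlapped at 4 and 10 h. The 18 h mean was 3089 ± 122 in enzastaurin and 2203 ± 83.6 in DMSO (SD, n = 3 each). This 1.40-fold difference between the treatments was 0.48 on the log2 scale (SE 0.07, adjusted p = 7.06e-05). The size of this change exceeded that of 87.5% of all genes. At 4 h the change was -0.13 (adjusted p = 0.482) and at 10 h 0.06 (adjusted p = 0.721).

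The 18 h difference of GSK3B from DMSO was called under all 15 alternative settings tried for it, at 0.46 to 0.56 with adjusted p up to 0.0079. Averaged over the 3 times the change was 0.14 (adjusted p = 0.0253), and 1 of 9 members was called there (18.4% of all genes). That call was lost with array medians subtracted (0.18, adjusted p = 0.0776) and with probe sets averaged (0.19, adjusted p = 0.114). It was also lost without DMSO replicate 3 of 10 h (adjusted p = 0.0538), enzastaurin replicate 1 of 4 h (0.0576), enzastaurin replicate 2 of 10 h (0.0626) or enzastaurin replicate 1 of 18 h (0.0538).

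The effect of enzastaurin on GSK3B differed between times. From 4 to 18 h it grew by 0.62 (SE 0.10, adjusted p = 6.55e-04), and GSK3B was the 1 member called in that comparison (7.71% of all genes). With array medians subtracted the growth was 0.49 (adjusted p = 0.0849), against a shift of -0.11 in the median of all genes, and with probe sets averaged it was 0.54 (adjusted p = 0.106). From 10 to 18 h the effect grew by 0.42 (SE 0.10, adjusted p = 0.0326, 1 member called against 2.21% of all genes). That call held under 11 of 21 settings and ended without any 1 of 8 arrays, with adjusted p up to 0.0867: DMSO replicates 1 and 2 and enzastaurin replicates 1 and 3 at 10 h, and replicates 1 and 3 of each treatment at 18 h. It also ended with array medians subtracted (adjusted p = 0.392) and with probe sets averaged (adjusted p = 0.155). From 4 to 10 h no member's effect was called to differ by limma (1.41% of all genes), with 3 at an unadjusted p under 0.05 (12.8% of all genes), and GSK3B stood at 0.19 (adjusted p = 0.456).

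Over time the level of GSK3B was also not flat in DMSO. The comparisons of 10 h with its neighbours within a treatment were added after the data were seen. In DMSO GSK3B rose from 4 to 10 h by 0.41 (adjusted p = 6.17e-04) and fell from 10 to 18 h, with a change of -0.31 (adjusted p = 0.0165). In enzastaurin it rose from 4 to 10 h by 0.60 (adjusted p = 9.96e-06), and the step from 10 to 18 h was 0.12 (adjusted p = 0.357). The growth of the effect by 0.42 from 10 to 18 h is thus made up of the DMSO fall and this smaller step. With probe sets averaged the 3 called steps were no longer called, at 0.30, -0.35 and 0.26 (adjusted p of 0.152, 0.167 and 0.234), and the DMSO fall was also lost without replicate 1 or 2 of 10 h or replicate 1 or 3 of 18 h (adjusted p up to 0.0727).

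Ordered by level, GSK3B was highest in enzastaurin at 18 h, then enzastaurin at 10 h, DMSO at 10 h, DMSO at 18 h, DMSO at 4 h and enzastaurin at 4 h. The first 3 groups overlapped from one to the next, as did the last 2, while DMSO at 10 h lay wholly above DMSO at 18 h and that above DMSO at 4 h. The genes whose 6 group means ran most like those of GSK3B, after each gene was centred, were RIC1, TTC7B-AS2 and TMTC2, with root mean square differences of 0.036, 0.042 and 0.051 on the log2 scale over the 6 groups. They were picked for this likeness.

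The other GSK3B probe sets had positive values at 18 h without being called in the fit of every probe set on its own, where the call of 226191_at held (adjusted p = 1.85e-04). At 18 h 209945_s_at stood at 0.28 (adjusted p = 0.159), 226183_at by 0.31 (0.169), 242336_at by 0.47 (0.316) and 240562_at, the dimmest and under the level limit, by 1.26 (0.164). Their arrays did not overlap at 18 h except for those of 240562_at. Of all genes tested 29.7% were apart at that time, and these probe sets were read on the same arrays. Of all 37 probe sets 1 was called at 18 h, against 6.13% of the 41091 probe sets fitted, and 25 had a positive value. In the same fit 226191_at was called neither for the average of the times nor for the effect at 18 h minus 10 h. Over time in DMSO the GSK3B probe sets disagreed. From 4 to 18 h 226183_at fell (-0.58, adjusted p = 0.0039), from 545, 603 and 614 to 368, 378 and 421, while 226191_at stood at 0.10 and 209945_s_at at 0.28 (adjusted p = 0.126). From 4 to 10 h in DMSO 226183_at stood at -0.38 and 226191_at at 0.41.

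**Figure D2:**
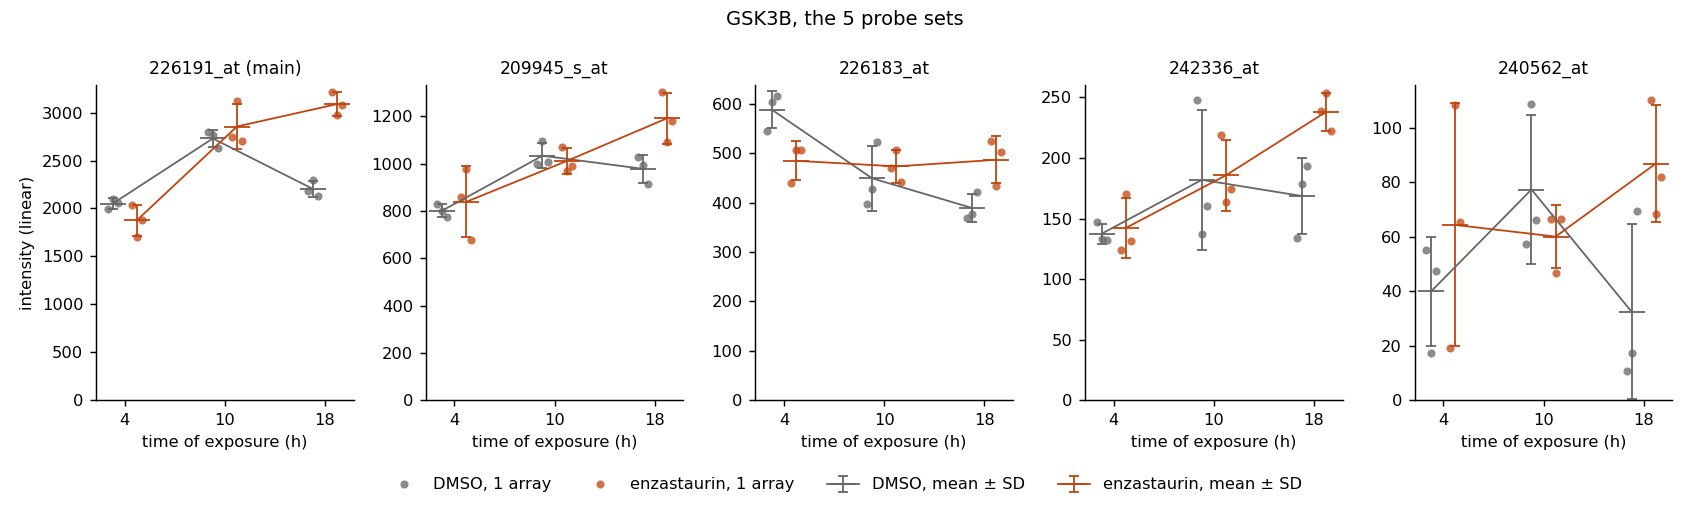
Intensity of the 5 GSK3B probe sets in each array (points) with mean ± SD (bars) by time in hours, equally spaced, in DMSO and enzastaurin (n = 3 each). At 18 h enzastaurin means lie above DMSO means in all 5 panels, while 226183_at falls in DMSO from 4 to 18 h (-0.58).

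GSK3A, the other GSK3 kinase, lies at chr19:42230190-42242602 and was not called against DMSO at any time. Its brightest probe set 632_at gave 901, 806 and 1006 in DMSO and 1009, 1086 and 1071 in enzastaurin at 10 h. The treatments were apart at that time by a narrow margin and overlapped at 4 and 18 h. The changes were -0.20 (adjusted p = 0.557), 0.22 (adjusted p = 0.340) and 0.08 (adjusted p = 0.747) at 4, 10 and 18 h, and the 18 h interval ran from -0.18 to 0.35. Within enzastaurin GSK3A was higher at 10 h than at 4 h by 0.38 (adjusted p = 0.0426), a call that held under 6 of 15 settings. It ended without enzastaurin replicate 1 or 3 of 4 h or any 1 replicate of 10 h, with adjusted p up to 0.132. The second probe set, 202210_x_at, gave -0.25. The level was highest in enzastaurin at 10 h and lowest in enzastaurin at 4 h, and each pair of neighbouring groups overlapped.

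CSNK1A1, casein kinase 1 alpha, which adds the priming phosphate, lies at chr5:149492982-149551439. Its brightest probe set, 213860_x_at, was level, with changes of 0.01, -0.02 and -0.01 (adjusted p of 0.966, 0.877 and 0.965). The 18 h interval ran from -0.13 to 0.12. The group means were 11976 ± 178, 13409 ± 486 and 12647 ± 150 in DMSO and 12072 ± 387, 13179 ± 429 and 12610 ± 875 in enzastaurin (SD, n = 3 each). The suffix _x_at marks a probe set with probes shared by other sequences, so this value is less certain.

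The 13 CSNK1A1 probe sets did not move together. From 4 to 18 h in enzastaurin 4 of the 13 were called, and over all members 10 of 37 were, against 13.5% of all probe sets. Among them 206562_s_at rose by 0.42 (adjusted p = 0.0019), from 5660, 6116 and 5743 to 7732, 8564 and 7182. In the opposite direction 208866_at fell (-0.57, adjusted p = 1.17e-04), from 1194, 1301 and 1350 to 891, 806 and 882, and neither probe set's arrays overlapped between the times. The falls of 1556007_s_at (-0.47, adjusted p = 0.0011) and 208865_at (-0.20, adjusted p = 0.029) were also called. In DMSO 208866_at fell as well (-0.42, adjusted p = 0.0037), and over all members 4 of 37 probe sets were called there (8.57% of all probe sets). Averaged over the times, 208866_at (0.19, adjusted p = 0.0223) and 1556007_s_at (0.18, adjusted p = 0.0406) were higher in enzastaurin than in DMSO, the 2 called of 37 (7.05% of all probe sets). Neither was called at 4, 10 or 18 h alone. The mean of 1556007_s_at was above DMSO at 4 h (1511 against 1185) and 10 h (1408 against 1198), but not at 18 h (1090 against 1116). The mean of 208866_at was above DMSO at each time. Which transcripts each probe set detects was not tested.

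**Figure D3:**
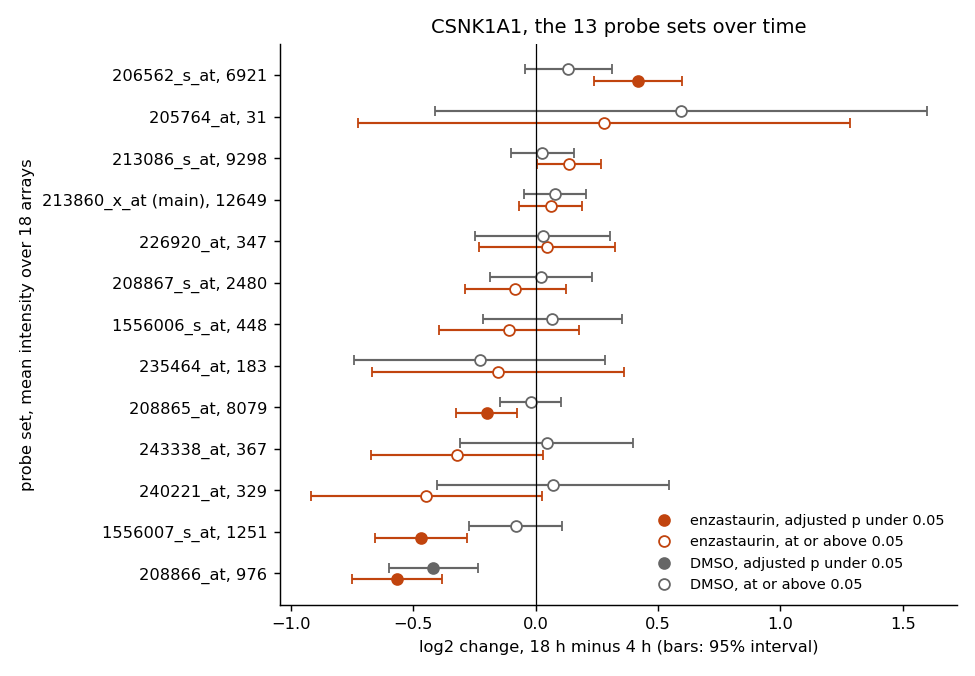
Log2 change from 4 to 18 h with its 95% interval for the 13 CSNK1A1 probe sets, in DMSO and enzastaurin (3 arrays per group); the mean intensity over 18 arrays stands beside each name and filled points have an adjusted p under 0.05. In enzastaurin 206562_s_at rises (0.42) and 208866_at falls (-0.57).

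AXIN1, the scaffold that is limiting for the complex, lies at chr16:287440-352723 and has 1 probe set, 212849_at, with large spread. At 18 h its intensities were 107, 199 and 43.9 in DMSO and 223, 244 and 357 in enzastaurin. All 3 enzastaurin arrays were above the DMSO arrays at that time, and at 4 and 10 h the treatments overlapped. The 18 h change was 1.29 (SE 0.52, adjusted p = 0.106), which was not called, and its interval ran from 0.20 to 2.39. The 18 h change was called under 1 of 14 alternative settings, without DMSO replicate 2 of 18 h (1.73, adjusted p = 0.0469). Over these settings it ran from 0.81 to 1.73, with adjusted p up to 0.393. At 4 h the change was -0.30 and at 10 h 0.30, both smaller than their standard error of 0.52.

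APC, the second scaffold, lies at chr5:112707498-112846239. The brightest of its 5 probe sets, 203525_s_at, gave 776, 934 and 873 in DMSO and 1149, 1172 and 919 in enzastaurin at 18 h. Enzastaurin replicate 3 lay under the highest DMSO array, so the treatments overlapped. The change was 0.32 (SE 0.11, adjusted p = 0.0657). It was called under 1 of 15 alternative settings, without that array (0.43, adjusted p = 0.019). Over these settings it ran from 0.25 to 0.43, with adjusted p up to 0.2565. At 4 and 10 h APC stood at -0.02 and -0.04. All 5 probe sets had a positive 18 h change, from 0.06 to 0.77, with none called. From 4 to 18 h in enzastaurin the probe set 215310_at rose by 1.70 (adjusted p = 0.0199), where 203525_s_at stood at 0.14. The values of 215310_at were 33.8, 41.6 and 207 at 4 h and 193, 282.5 and 333 at 18 h, so the times overlapped. Its 4 h values of 33.8 and 41.6 lay under 109.006, the level limit set for means.

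**Figure D4:**
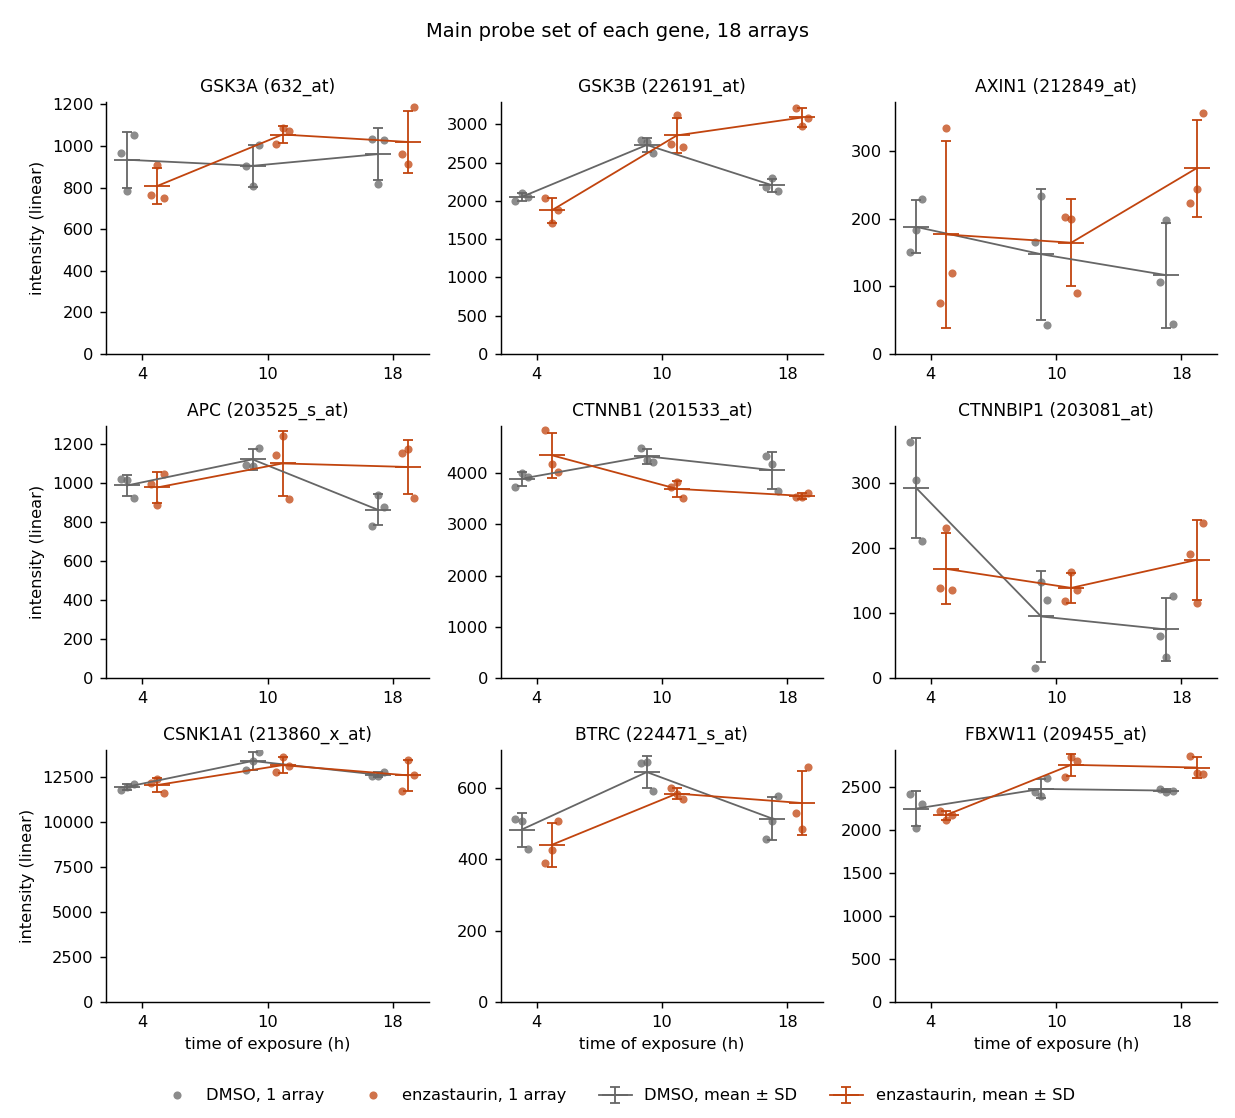
Intensity of the brightest probe set of each of the 9 genes in every array (points), with mean ± SD (bars), by time in hours, equally spaced, in DMSO and enzastaurin (n = 3 each). GSK3B parts at 18 h, the CTNNB1 lines cross after 4 h, and CSNK1A1 runs together in both treatments.

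CTNNB1, which encodes beta-catenin, lies at chr3:41199505-41240443. At 4 h 201533_at gave 3738, 4011 and 3922 in DMSO and 4849, 4186 and 4013 in enzastaurin. At 10 h it gave 4499, 4260 and 4224 in DMSO and 3735, 3827 and 3515 in enzastaurin, and at 18 h 4339, 4180 and 3653 against 3524, 3527 and 3616. The arrays did not overlap at any of the 3 times, with enzastaurin above DMSO at 4 h and under it at 10 and 18 h; at 4 h the nearest arrays were 4011 in DMSO and 4013 in enzastaurin. The changes were 0.16 (SE 0.07, adjusted p = 0.389), -0.23 (SE 0.07, adjusted p = 0.0613) and -0.19 (SE 0.07, adjusted p = 0.0985), and none was called.

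The adjusted p of CTNNB1 lay closer to the threshold at 10 and 18 h than at 4 h, and it varied with the setting. At 10 h the change was called under 1 of 15 settings, with only the brightest 25% of probe sets tested (adjusted p = 0.0389, elsewhere up to 0.75). At 18 h it was called under 1 of 15, without DMSO replicate 3 (-0.26, adjusted p = 0.0276, elsewhere up to 0.416). The effect at 18 h minus that at 4 h was -0.34 (SE 0.10, adjusted p = 0.0502) and that at 10 h minus 4 h was -0.38 (adjusted p = 0.0832). The first was called under 5 of 21 settings and the second under 2 of 21, among them in both cases without enzastaurin replicate 3 of 4 h (adjusted p of 0.0288 and 0.0491), and for the first without DMSO replicate 3 of 18 h (adjusted p = 0.0170). Within enzastaurin CTNNB1 fell from 4 to 18 h (-0.28, adjusted p = 0.0059), and it was 1 of 3 members called in that comparison, with GSK3B (0.72, adjusted p = 2.29e-07) and FBXW11 (30.1% of all genes). Without enzastaurin replicate 1 of 4 h the adjusted p of CTNNB1 was 0.0517, and with probe sets averaged it was 0.271. The other probe sets, dimmer, gave -0.55 (1554411_at, adjusted p = 0.178) and 0.02 (223679_at). In DMSO CTNNB1 stood at 0.06 from 4 to 18 h (adjusted p = 0.664). From 4 to 10 h in enzastaurin it fell (-0.23, adjusted p = 0.0357), a call that held under 5 of 15 settings and ended without enzastaurin replicate 1 or 2 of 4 h or any 1 replicate of 10 h, to as little as -0.15 (adjusted p up to 0.214).

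CTNNBIP1 encodes a small protein that keeps beta-catenin from binding TCF factors, and lies at chr1:9848276-9910269. Its 1 probe set, 203081_at, was at 363, 303 and 211 in DMSO at 4 h, at 14.8, 148 and 120 at 10 h, and at 64.5, 32.5 and 126 at 18 h. In enzastaurin it was at 138, 230 and 135, then 118, 162 and 134, then 190, 115 and 238. The DMSO arrays at 4 h lay above those of both later times, while in enzastaurin the 3 times overlapped. The DMSO means of 94.4 at 10 h and 74.5 at 18 h lay under 109.006, the level limit set for means over all arrays. In DMSO CTNNBIP1 fell from 4 to 18 h (-1.87, SE 0.49, adjusted p = 0.0091), the 1 member called there (20.3% of all genes), a call that ended without DMSO replicate 2 of 18 h (-1.49, adjusted p = 0.0573). From 4 to 10 h the fall was -1.77 (adjusted p = 0.0159), lost without DMSO replicate 1 of 4 h (-1.61, adjusted p = 0.0667) or replicate 1 of 10 h (-1.01, adjusted p = 0.0965).

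Against DMSO the changes of CTNNBIP1 were -0.75 (adjusted p = 0.566), 0.79 (adjusted p = 0.391) and 1.21 (SE 0.49, adjusted p = 0.104) at 4, 10 and 18 h. None was called. The 18 h value was called under 1 of 14 alternative settings, without DMSO replicate 3 of that time (1.61, adjusted p = 0.0485). Over these settings it ran from 0.83 to 1.61, with adjusted p up to 0.355. The effect at 18 h minus that at 4 h was 1.96 (SE 0.69, adjusted p = 0.0930). It was called under 2 of 20 settings, with adjusted p up to 0.219 over the settings. These were without the same array (2.36, adjusted p = 0.0489) and with only the groups compared fitted (adjusted p = 0.0377).

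BTRC, the F-box protein that recognises phosphorylated beta-catenin, lies at chr10:101354048-101557313. Its brightest probe set, 224471_s_at, had group means of 483 ± 47.4, 644 ± 45.7 and 514 ± 59.5 in DMSO at 4, 10 and 18 h and 440 ± 61.2, 584 ± 14.4 and 558 ± 90.9 in enzastaurin (SD, n = 3 each). The treatments overlapped at each time, with changes of -0.13, -0.14 and 0.11 and adjusted p of 0.743, 0.636 and 0.675. From 4 to 10 h it rose in DMSO by 0.41 (adjusted p = 0.0372) and in enzastaurin by 0.40 (adjusted p = 0.0402). These were 1 of 3 members called in DMSO (18.2% of all genes) and 1 of 5 in enzastaurin (17.2%). The calls held under 7 and 5 of 15 settings, and in DMSO ended without any 1 array of 4 h or replicate 1 or 2 of 10 h (adjusted p up to 0.151), and in enzastaurin without replicate 1 or 2 of 4 h or any 1 array of 10 h (up to 0.171). None of the other 4 probe sets was called over that step, and 222374_at and 1563620_at were under the level limit. In DMSO 204901_at stood at 0.27, and 216091_s_at, 222374_at and 1563620_at at -0.08, -0.43 and -0.27. In enzastaurin they stood at 0.76, 0.13, -0.15 and -0.53 in the same order.

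FBXW11, the paralog of BTRC with the same substrate motif, lies at chr5:171861549-172006638. Its brightest probe set, 209455_at, gave 2446, 2394 and 2605 in DMSO and 2619, 2860 and 2809 in enzastaurin at 10 h. At 18 h it gave 2482, 2445 and 2461 in DMSO and 2866, 2672 and 2656 in enzastaurin. Enzastaurin arrays lay above DMSO arrays at both times, at 10 h by a narrow margin. The changes were 0.15 at 10 h (SE 0.07, adjusted p = 0.201) and 0.15 at 18 h (SE 0.07, adjusted p = 0.165), and at 4 h -0.05, none of them called. The second probe set, 209456_s_at, stood at 0.05 at 10 h and -0.08 at 18 h, with overlapping arrays.

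Within enzastaurin FBXW11 rose from 4 to 10 h by 0.34 (adjusted p = 0.0016), called under all 15 settings, and from 4 to 18 h by 0.33 (adjusted p = 0.0011). The latter was lost with array medians subtracted (0.20, adjusted p = 0.159). In DMSO the change from 4 to 18 h was 0.13 (adjusted p = 0.204), and the effects at 4 and 18 h were not called to differ (0.19, adjusted p = 0.266). Probe set 209456_s_at rose from 4 to 18 h in both treatments, by 0.54 in DMSO (adjusted p = 0.0423) and 0.56 in enzastaurin (adjusted p = 0.0262). From 10 to 18 h in enzastaurin no member was called by limma (11% of all genes), and none had an unadjusted p under 0.05 (24.5% of all genes). In DMSO over the same step GSK3B was the 1 called (5.27% of all genes).

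The other genes of the pathway were counted from lists chosen with earlier results of these data known. Over all genes 0.541% were called higher and 1.23% lower at 4 h, 3.78% and 4.63% at 10 h, and 8.03% and 7.82% at 18 h. Partners of the destruction complex (24 tested) gave no calls at 4 h, 1 higher and 2 lower at 10 h, and 1 higher and 1 lower at 18 h, with medians of 0.06, -0.01 and 0.04. FRAT2, which binds GSK3 and takes it from the scaffold, was lower at 10 h (-0.50, adjusted p = 0.0219) and 18 h (-0.63, adjusted p = 0.0020). Of the Dishevelled genes, which relay the Wnt signal to the complex, DVL1 was called higher at 10 h (0.26, adjusted p = 0.0304) and DVL2 at 18 h (0.39, adjusted p = 5.17e-04), each at that time alone. The tankyrase TNKS2, which marks AXIN for removal, was lower over the average of the times (-0.22, adjusted p = 0.0015), but stood at -0.18 with array medians subtracted (adjusted p = 0.111) and at -0.03 with probe sets averaged (adjusted p = 0.900). The 10 h calls of FRAT2 and DVL1 were lost when only the groups compared were fitted (adjusted p of 0.0581 and 0.0917), and that of DVL1 with array medians subtracted (0.178). FRAT2 also lost it without DMSO replicate 1 or 3 or enzastaurin replicate 1 or 2 (up to 0.0909), and DVL1 without any 1 array but enzastaurin replicate 2 (up to 0.127).

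The core of the ubiquitin ligase with which BTRC and FBXW11 work (9 tested) gave no calls at 4 and 10 h and 1 lower gene at 18 h, with medians of 0.07, -0.07 and -0.05. That gene was RBX1, the RING subunit (-0.42, adjusted p = 0.0055). Kinases that phosphorylate GSK3 (10 tested) gave 1, 2 and 3 lower genes at 4, 10 and 18 h and none higher, with medians of 0.08, -0.06 and -0.19. SGK1, a kinase downstream of PI3K, was lower throughout (-1.24, -0.63 and -0.73, adjusted p of 3.83e-07, 5.82e-04 and 4.75e-05). RPS6KA3, a kinase of the ERK pathway, was lower at 18 h (-0.35, adjusted p = 0.0243), a call lost without any 1 of 4 arrays, DMSO replicates 1, 2 and 3 and enzastaurin replicate 3 (adjusted p up to 0.150), and with medians subtracted, probe sets averaged or only the groups compared (up to 0.0891).

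Upstream of the complex, Wnt receptors (11 tested) gave 3 lower at 4 h, 1 lower at 10 h, and 2 higher and 1 lower at 18 h, with medians of -0.06, -0.05 and 0.04. FZD2 was lower at all 3 times (-0.90, -1.16 and -1.44, adjusted p of 0.0020, 4.24e-05 and 1.07e-06), and with probe sets averaged its 4 h call was lost (-0.49, adjusted p = 0.101). FZD7 was lower at 4 h (-0.74, adjusted p = 3.88e-05) and higher at 18 h (0.32, adjusted p = 0.0149). The 18 h call of FZD7 was lost with array medians subtracted (adjusted p = 0.110), without DMSO replicate 3 (0.0568) or without enzastaurin replicate 1 (0.0931). Averaged over the times FZD4 was lower (-0.36, adjusted p = 0.0223) and FZD6 higher (0.14, adjusted p = 0.0279), and both calls were lost with array medians subtracted (adjusted p of 0.0511 and 0.0926). FZD4 was also lost with probe sets averaged (0.349) and without DMSO replicate 3 of 10 h or enzastaurin replicate 3 of 4 h, 1 of 10 h or 1 of 18 h (up to 0.0532). FZD6 was also lost without replicate 1 of any group but DMSO at 4 h, or enzastaurin replicate 2 of 10 h (up to 0.0652).

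At the cell membrane and in the nucleus beta-catenin has other partners. Of its cadherin and catenin partners (4 tested) none was called at 4 h and 2 were lower at 10 and 18 h, with medians of -0.06, -0.20 and -0.37. The cadherin CDH11 changed by -0.37 at 10 h (adjusted p = 0.0178) and -0.55 at 18 h (adjusted p = 3.12e-04), and JUP, which encodes plakoglobin, by -0.65 (adjusted p = 0.0089) and -0.73 (adjusted p = 0.0017). At 10 h CDH11 was not called once DMSO replicate 3, or enzastaurin replicate 1 or 2, was left out (adjusted p up to 0.0776), with medians subtracted (0.141) and with probe sets averaged (0.199). The 10 h call of JUP ended when either DMSO replicate 1 (adjusted p = 0.0644) or enzastaurin replicate 3 (0.0536) was left out. Nuclear partners (15 tested) gave no calls at 4 h, 1 higher and 2 lower at 10 h, and 2 higher and 2 lower at 18 h, with medians of 0.02, 0.03 and 0.08.

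LEF1, which binds DNA with beta-catenin, was higher at 10 h (0.71, adjusted p = 0.0010) and 18 h (1.66, adjusted p = 9.01e-09), and its 10 h call was lost with probe sets averaged (0.47, adjusted p = 0.0959). TCF7L2, a factor of the same family, was lower at 10 h (-0.31, adjusted p = 0.0070) and 18 h (-0.24, adjusted p = 0.0226). Its 10 h call was lost without DMSO replicate 2 (adjusted p = 0.0556) and its 18 h call without DMSO replicate 1 or 2 or enzastaurin replicate 2 or 3 (up to 0.0907). Both calls were lost with array medians subtracted (0.123 and 0.151) and with probe sets averaged (0.138 and 0.805). The coactivator CREBBP was lower at 10 h (-0.30, adjusted p = 0.0349), lost without any 1 array but DMSO replicate 1 (up to 0.144), with medians subtracted (0.281) and with probe sets averaged (0.938). The corepressor TLE4 was lower at 18 h (-0.45, adjusted p = 0.0364), lost without any 1 array but DMSO replicate 1 (up to 0.162) and with no level limit, medians subtracted or probe sets averaged (up to 0.0976).

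Genes that beta-catenin with TCF and LEF factors is known to act on, several of them feedback inhibitors of the pathway, form the last list. It was chosen with the rise of its genes known, so its direction is no independent evidence. Feedback and target genes (9 tested) gave 3 higher and 2 lower at 4 h, 5 higher and 2 lower at 10 h, and 6 higher and 1 lower at 18 h, with medians of 0.18, 0.66 and 1.70. AXIN2, the feedback scaffold, was at 228, 214 and 228 in DMSO and 1190, 1125 and 1157 in enzastaurin at 4 h. At 18 h it was at 230, 139 and 186 in DMSO and 3325, 2928 and 3160 in enzastaurin. The treatments were far apart at both times, where AXIN1 stood at -0.30 and 1.29 and was not called. The effect on AXIN2 grew by 1.70 from 4 to 18 h (SE 0.19, adjusted p = 6.31e-06) and by 1.05 from 10 to 18 h (adjusted p = 0.0037), the same intervals over which that on GSK3B grew by 0.62 and 0.42. These comparisons share their arrays, so the 2 genes' values stand side by side without a test between them. ZNRF3, a ligase that removes Wnt receptors, changed by 0.76, 1.14 and 1.70, and TNFRSF19, a receptor gene, by 0.79, 1.67 and 2.21, all called. MYC, the growth regulator, was lower at all 3 times (-0.70, -0.75 and -1.04), and its 4 h call was lost with array medians subtracted (-0.58, adjusted p = 0.0591).

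**Figure D5:**
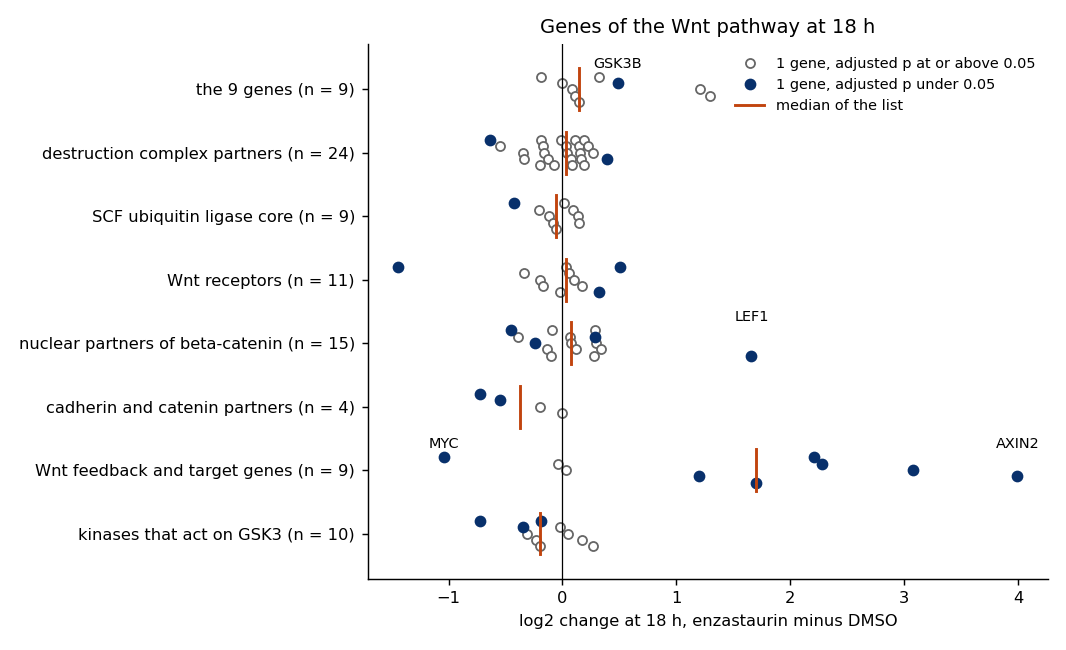
Log2 change at 18 h, enzastaurin minus DMSO, of each tested gene (points, filled where adjusted p is under 0.05) in the 9 genes and 7 other lists of the pathway, with the list median (bar). Medians lie between -0.37 and 0.15 except for feedback and target genes (1.70), where AXIN2 reaches 4.00.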

How the data were processed

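RNA from 18 samples of U251 cells was hybridised to 1 Affymetrix HG-U133 Plus 2.0 array each. The authors deposited 1 intensity per probe set and array on a linear scale, made with GCOS 1.2 per the submitters' processing notes. On each array the mean after trimming 2% at each end was 498.25 to 498.54, array medians were 99.2 to 125.9, and values ran from 0.1 to 63584.9. Other upstream steps are not given in the sources used here.

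Of 54613 probe sets the platform annotation gives 41091 a single gene symbol, 1801 several and 11721 none. The brightest single-symbol probe set stood for each gene, and genes with a mean intensity of at least 109.006, the median over probe sets, were tested (12392 of 19775). Of the 37 probe sets described, 33 passed that limit. Values were taken as log2(intensity + 16) and fitted with limma 3.58.1 (R 4.3.3) over all 18 arrays with 1 mean per group and an intensity trend, with Benjamini-Hochberg adjustment at 0.05. The other probe sets were read from the same model on all 41091, without the limit. Figures were drawn with matplotlib 3.10.9 in Python 3.11.15.

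All 9 genes were named in every comparison; of each pathway list at most 4 called genes were named, those with the smallest adjusted p for the average effect, and AXIN2. The members and lists were chosen with earlier results of these data known. Alternatives were offsets of 1 and 64, no limit on level, the brightest 25%, quantile normalization, array medians subtracted, probe sets of a gene averaged, only the groups compared, a replicate block, and each array left out. Deviations of same-numbered treated and control arrays correlated at -0.0787 to 0.0554 over 9 pairs, so numbers were not taken as pairs. Over all same-numbered arrays of different groups the range was -0.1295 to 0.1753. These correlations cannot exclude a pairing. The script was tested on simulated data.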

Additional observations from a re-analysis of the deposited data

Results flagged for a closer look

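The enzastaurin effect differed between times for GSK3B, by the test of the difference in limma. It was larger at 18 h than at 4 h by 0.62 (SE 0.10, adjusted p = 6.55e-04) and than at 10 h by 0.42 (SE 0.10, adjusted p = 0.0326) on the log2 scale. Both calls were lost with array medians subtracted and with probe sets averaged, with adjusted p up to 0.106 and 0.392. They held under 19 and 11 of 21 settings, and the latter call also depends on single arrays. The effect on AXIN2 differed between times too, by 1.70 (SE 0.19, adjusted p = 6.31e-06) and 1.05 (SE 0.19, adjusted p = 0.0037) for the same pairs of times. No cause was tested.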

How the results depend on the processing

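Counts are of genes called by limma, members meaning the 9 genes. With array medians subtracted, calls against DMSO over all genes went from 220 to 80 at 4 h, 1042 to 445 at 10 h and 1964 to 1186 at 18 h; for the effect at 10 h minus 4 h, 18 h minus 10 h and 18 h minus 4 h from 175 to 29, 274 to 63 and 956 to 541; for DMSO 18 h minus 4 h from 2512 to 1541 and 18 h minus 10 h from 653 to 428; for enzastaurin 10 h minus 4 h from 2127 to 1160. Members went from 1 to 0 for the average, 18 h minus 10 h and 18 h minus 4 h effects, and from 5 to 2 for enzastaurin 10 h minus 4 h. With probe sets averaged, all-gene calls were 130 and 632 at 4 and 10 h, 71, 130 and 550 for the effects between times, 1324 and 337 for the DMSO steps to 10 and 18 h, and 1285 and 843 for those in enzastaurin. Members were 0 for the average, both later effects and DMSO 18 h minus 10 h, 2 for DMSO 18 h minus 4 h, and 1 each for DMSO and enzastaurin 10 h minus 4 h. With only the groups compared, all-gene calls were 138 at 4 h and 799 (from 1363) for enzastaurin 18 h minus 10 h, and members 2 for the 18 h minus 4 h effect, 2 for DMSO 18 h minus 10 h and 3 for enzastaurin 10 h minus 4 h. With the brightest 25%, members were 1 at 10 h, 1 and 2 for the effects from 4 h, 0 for DMSO 18 h minus 4 h and 2 for DMSO 18 h minus 10 h. CTNNBIP1, the member called for DMSO 18 h minus 4 h in the main fit, and AXIN1 were too dim to be tested under that setting. With no limit on level, all-gene calls for 10 h minus 4 h were 115 and members for enzastaurin 10 h minus 4 h were 2; these were 3 with quantile normalization, and with an offset of 64 members for the 18 h minus 4 h effect were 2. Other causes were not tested.

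With 1 array left out, all-gene calls were 140 to 178 at 4 h, 659 to 799 at 10 h, 68 to 158 and 176 to 287 for the effects at 10 h minus 4 h and 18 h minus 10 h, 294 to 587 for DMSO 18 h minus 10 h and 894 to 1256 for enzastaurin 18 h minus 10 h. Members were 1 to 3 at 18 h and for the 18 h minus 4 h effect, 0 to 1 for the average, the other effects, DMSO 18 h minus 4 h and 18 h minus 10 h, 2 to 5 for enzastaurin 18 h minus 4 h, 1 to 3 for DMSO 10 h minus 4 h and 2 to 4 for enzastaurin 10 h minus 4 h.

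Called values that turned were, with probe sets averaged, the CREBBP average (0.026) and BTRC DMSO 10 h minus 4 h (-0.022), and on other probe sets BTRC (-0.083, -0.43, -0.27 in DMSO, -0.15, -0.53 in enzastaurin), GSK3B (-0.38 in DMSO, -0.032 in enzastaurin) and GSK3A (-0.25 in enzastaurin) from 4 to 10 h, and CTNNB1 (0.024) from 4 to 18 h in enzastaurin.

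The replicate numbers were not taken as pairs, and the correlations of same-numbered arrays cannot exclude a pairing. With the replicate number as a block, calls against DMSO were 215, 1042 and 1946 at 4, 10 and 18 h, GSK3B at 18 h stood at 0.48 (adjusted p = 1.45e-04), and members called were 2 for the 18 h minus 4 h effect, GSK3B and CTNNB1. Precision was low for the dim probe sets of AXIN1 and CTNNBIP1, with standard errors of 0.52 and 0.49 on the log2 scale, and their 18 h values of 1.29 and 1.21 were not called.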
